A study of Homo sapiens with 5 samples.

Results

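Upstream-only promoters are those whose single peak of PHF8, a Jumonji C histone demethylase, had its summit before the start of the gene. The peaks come from ChIP-seq (chromatin immunoprecipitation followed by sequencing), in which crosslinked and sonicated chromatin of the human melanoma cell line SKMEL-147 was precipitated with an antibody to PHF8. There were 5 samples, of which 3 were ChIP replicates named A, B1 and B2 and 2 were inputs that entered here only through the peak values. The labels give the ChIP samples no treatment or genotype, and nothing in them says that the replicates came from separate cultures, so any p-value measures only the spread between these samples. The names set B1 and B2 together and A apart.

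The members were chosen by the measured summit positions. A summit is the base of a peak with the most ChIP fragments, and a gene start is the 5′ end of the gene record in GENCODE release 44, lifted to GRCh37. An upstream-only promoter belonged to an autosomal protein-coding gene with exactly 1 summit within 1 kb of its start in each of the 3 replicates, lying 150 to 400 bp upstream in all 3. Of 19229 such genes, 514 met this rule, which was 2.67% of all and 11.3% of the 4531 genes with a single summit in every replicate. The comparison class, called downstream-only, had its single summit 50 to 200 bp downstream in all 3 replicates and held 1964 genes, or 43.3% of the single-summit genes. The 514 members carried 506 distinct summits, since 8 summits were each the summit of more than 1 member (16 members in all), as at ITGA1 and PELO or at COMMD3 and COMMD3-BMI1.

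PHF8 reads trimethylated lysine 4 of histone H3 with its plant homeodomain finger and removes methyl groups from repressive positions such as monomethylated lysine 20 of histone H4 and mono- or dimethylated lysine 9 of histone H3. Trimethylated lysine 4 marks the nucleosomes beside active CpG-rich promoters and is usually highest just past the start of transcription. At divergent promoters, where neighbouring genes start back to back on opposite strands, such nucleosomes flank the shared nucleosome-poor stretch on both sides. No histone mark was analysed here.

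Members are called divergent where a different gene starts within 1 kb upstream on the other strand, and stand-alone where none does. The DNA between both starts is shown for 5 of the most strongly bound members with a protein-coding neighbour, because the summits lay beyond this stretch, past the neighbour's start. Of 13 such stretches read at the strongest of these members, 8 held GGGCGG on either strand and 5 did not. The 5 shown are the strongest of the 13 apart from DNM1, which did not hold it and whose canonical start, that of the transcript chosen to represent the gene, lies 11.7 kb inside its record. They were read from GRCh37 on the strand of the named gene, 5′ to 3′, and capitals mark GGGCGG or its reverse complement (the SP/KLF motif) and CCGGAAG or its reverse complement (ETS). The stretches are chr17:35766928-35766976 (minus strand) for ACACA, chr17:26684551-26684664 (plus) for TMEM199, chr20:30795547-30795657 (minus) for PLAGL2, chr9:96213871-96213966 (plus) for FAM120A and chr11:66360535-66360623 (minus) for CCDC87, which holds neither.
ACACA: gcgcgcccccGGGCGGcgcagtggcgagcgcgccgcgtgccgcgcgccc
TMEM199: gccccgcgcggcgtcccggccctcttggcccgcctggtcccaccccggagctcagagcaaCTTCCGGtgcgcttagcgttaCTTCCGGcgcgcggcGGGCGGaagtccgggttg
PLAGL2: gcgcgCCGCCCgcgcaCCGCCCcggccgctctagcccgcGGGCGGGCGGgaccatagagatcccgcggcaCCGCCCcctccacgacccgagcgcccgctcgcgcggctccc
FAM120A: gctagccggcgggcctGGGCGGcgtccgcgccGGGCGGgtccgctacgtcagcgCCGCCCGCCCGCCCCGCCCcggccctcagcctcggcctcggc
CCDC87: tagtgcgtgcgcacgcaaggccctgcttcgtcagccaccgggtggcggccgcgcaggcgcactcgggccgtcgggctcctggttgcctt

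The DNA under the summit itself, 50 bp on either side of its mean position, is shown for 4 of the strongest members with no start of any other gene within 5 kb. Of 9 such windows read, 2 held GGGCGG on either strand, and the 4 shown are the strongest of the 9 apart from TNFAIP8, which did not hold it and whose canonical start lies 87.3 kb inside its record. They lie at chr19:34745243-34745343 (plus strand) for GARRE1, chr16:3767691-3767791 (minus) for TRAP1, chr17:75954353-75954453 (plus) for TNRC6C and chr14:91977040-91977140 (minus) for PPP4R3A, a regulatory subunit of protein phosphatase 4. Capitals mark the SP/KLF motif, which TNRC6C and PPP4R3A lack. These windows differ in place and length from the stretches between starts, so the counts of both are not compared. Over all members, GGGCGG lay within 75 bp of the summit at 39.9% of divergent and 37.2% of stand-alone ones. From 100 bp before to 50 bp after the start it was found at 62.0% and 76.0%.
GARRE1: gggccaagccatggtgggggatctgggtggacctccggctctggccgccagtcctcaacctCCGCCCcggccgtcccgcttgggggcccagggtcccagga
TRAP1: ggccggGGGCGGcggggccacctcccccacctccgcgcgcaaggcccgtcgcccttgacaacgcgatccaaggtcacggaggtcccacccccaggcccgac
TNRC6C: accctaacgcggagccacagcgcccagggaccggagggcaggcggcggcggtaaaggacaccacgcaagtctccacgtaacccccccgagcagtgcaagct
PPP4R3A: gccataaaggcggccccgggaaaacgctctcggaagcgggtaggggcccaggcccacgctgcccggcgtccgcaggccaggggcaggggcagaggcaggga

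The summit kept its place between replicates, within what the rule allows. With positions counted from the start and negative upstream, the median member summit lay at -230, -229.5 and -229.5 bp (A, B1 and B2), and the median SD of a member's position over the replicates was 12.1 bp. Downstream-only summits lay at medians of 144, 143 and 144 bp past the start, with a median SD of 12.7 bp. These positions chose both classes and carry no test. Of the other single-summit genes, 65 had the summit between 150 bp upstream and 50 bp downstream in all 3 replicates (425 by the mean position), 95 had it more than 400 bp upstream in all 3, and 952 more than 200 bp downstream in all 3.

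**Figure D1:**
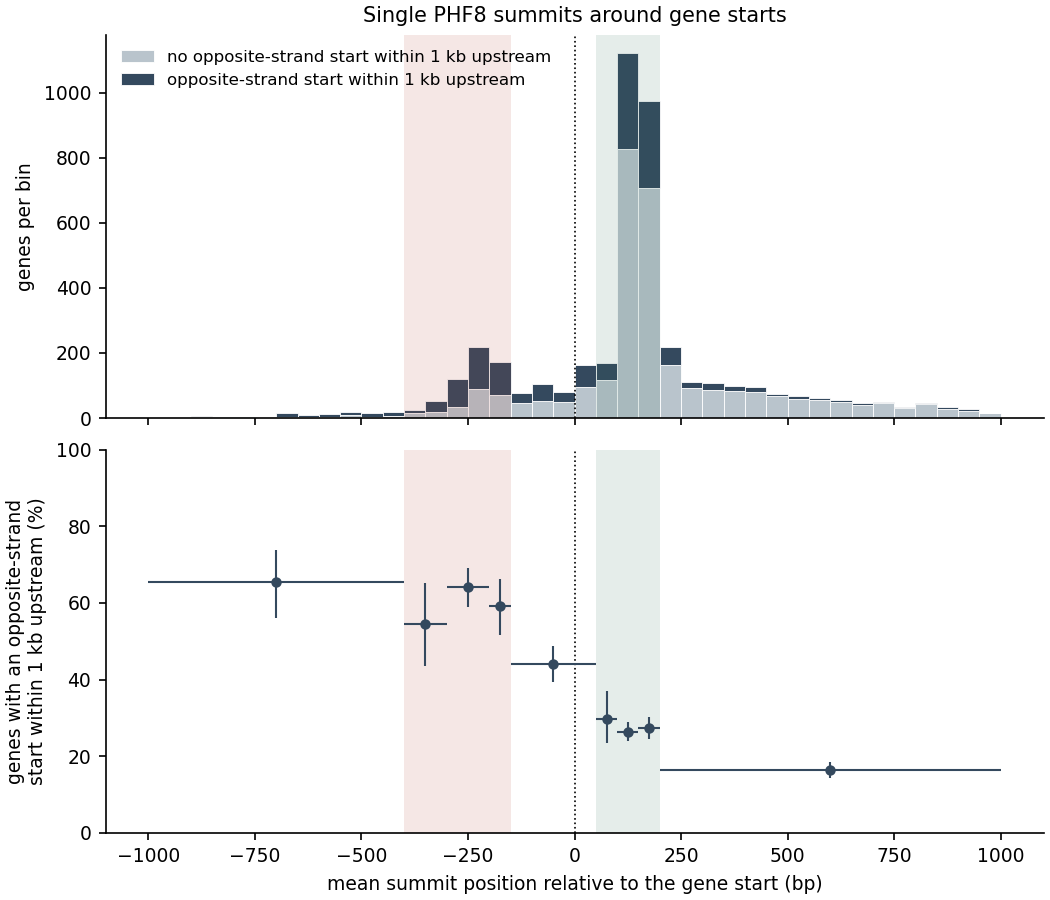
Top, number of genes with a single summit in all 3 replicates by mean summit position (bp from the gene start, bins of 50 bp), dark where the gene has a divergent neighbour within 1 kb; bottom, the share of such genes by wider position bins, with 95% Wilson intervals. The red band marks 150 to 400 bp upstream and the green band 50 to 200 bp downstream, and the share was 65.5% beyond 400 bp upstream, 64.2% at 200 to 300 bp upstream and 26.4% at 100 to 150 bp downstream.

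The limits of the rule were not gaps in the data. Just inside the near limit were MCPH1 (summits 161, 157 and 156 bp upstream in A, B1 and B2), ZBTB1 (150, 161 and 160 bp) and FAM227A (a mean of 157 bp). SRGAP3, with summits 137, 178 and 134 bp upstream, fell just outside it. At the far limit ESR2 (399, 385 and 400 bp) was inside, and TTC30B (410, 399 and 400 bp) was outside. SRGAP3 thus missed the class in 2 replicates and TTC30B in 1.

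To read the position in data that the choice had not used, classes were chosen in 2 replicates and looked up in the third. Of 655 genes chosen in B1 and B2, 78.5% (95% Wilson interval 75.2 to 81.5) had their single summit 150 to 400 bp upstream in A as well. The share was 76.3% of 674 genes (72.9 to 79.3) read in B1 and 72.2% of 712 genes (68.8 to 75.4) read in B2, a mean of 75.6% ± 3.19 (SD, n = 3). Among all genes with 1 summit in the replicate that was read, the upstream position was held by 17.4% in A, 16.6% in B1 and 15.7% in B2. The denominators differ, since the shares kept count genes with none or several summits as lost and this background leaves them out. For the downstream position the mean was 82.2% ± 0.671. Most upstream genes that dropped out had several summits in the third replicate (70, 90 and 121 genes) or a summit elsewhere (69, 65 and 70), and few had none (2, 5 and 7).

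The strongest upstream-only promoters ranked among the most strongly bound single-summit promoters. Fold enrichment is the linear ratio of ChIP fragments to the local background at the summit, and genes were ranked by their mean percentile over the replicates among the 4531 single-summit genes. UBTD2, a gene of a ubiquitin-like domain protein, came first, with fold enrichments of 78.3, 45.3 and 51.9 (A, B1 and B2, the order used from here on). TAF4, a subunit of the general transcription factor TFIID, reached 66.1, 57.9 and 54.2. ACACA, the acetyl-CoA carboxylase of fatty acid synthesis, reached 68.5, 43.0 and 45.0. Values in A ran higher throughout, with a median of 18.9 over all its peaks against 11.8 in both B1 and B2, so genes are compared within a replicate.

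CNBP, a nucleic-acid-binding zinc finger protein, had fold enrichments of 69.6, 46.8 and 40.7. TMEM199, a factor of proton pump assembly, had 66.7, 45.7 and 43.7, and PLAGL2, a zinc finger transcription factor, had 63.0, 43.7 and 44.1. The other members among the top 10 were TKFC, DNM1, FAM120A and CCDC87. These 10 genes stood at mean percentiles of 98.1 to 99.6, and 9 of them had an opposite-strand start within 1 kb upstream, beside 61.9% of all members. At TAF4 that start was of a long non-coding RNA gene 949 bp away, and the summit lay between both starts. The downstream-only class reached the same heights, with IST1 at 70.7, 49.2 and 47.9 and DNAJC25 at 67.0, 61.8 and 63.3.

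**Figure D2:**
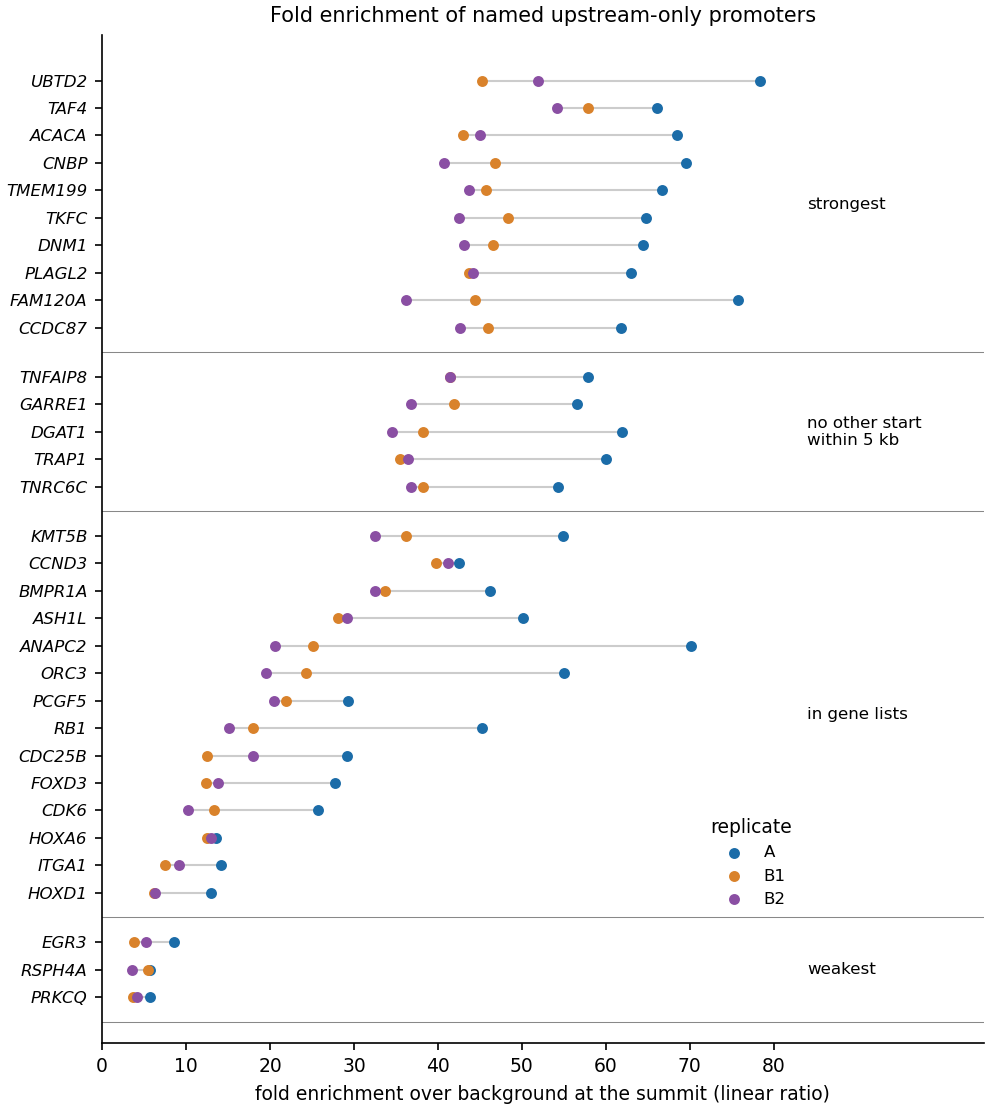
Fold enrichment at the summit (linear ratio, horizontal axis) of named upstream-only promoters in replicates A, B1 and B2, 1 row per gene; the blocks hold the 10 strongest, the 5 strongest with no other start within 5 kb, members of the gene lists and the 3 weakest. The scale differs between replicates and runs higher in A, and values span 78.3 (UBTD2 in A) to 3.61 (RSPH4A in B2).

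The weakest members carried small, narrow peaks. EGR3, an immediate-early transcription factor, had fold enrichments of 8.57, 3.77 and 5.27. RSPH4A, a protein of the radial spokes of motile cilia, had 5.71, 5.46 and 3.61, and PRKCQ, a protein kinase C of T cells, had 5.67, 3.70 and 4.17. These summits rested on 10 to 23 recovered ChIP fragments, and their peaks were 153 to 274 bp wide and ended upstream of the start.

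Over all members the median fold enrichments were 40.7, 24.4 and 23.0, on medians of 122, 83 and 81 ChIP fragments at the summit. For downstream-only promoters the medians were 36.7, 21.5 and 20.7, on 110, 74 and 73 fragments. The class medians differed by a factor of 1.12 (1.11 to 1.14 over the replicates), which is small against the spread among genes, whose quartiles in A were 30.2 and 50.6 for members. Read in the replicate that had not been used for the choice, the log2 ratio of medians was 0.14 ± 0.035 (SD, n = 3), positive in 3 of 3 replicates. The exact two-sided sign-flip permutation test gave p = 0.25, the smallest that 3 replicates allow, so the design cannot reach 0.05. Within divergent promoters alone the factor was 1.04, and within stand-alone promoters 1.05. The divergent classes partly share peaks, since 132 protein-coding neighbours of members were themselves downstream-only promoters, often with the same summit. The factor of 1.04 thus does not compare separate sets of peaks.

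The peaks of the members were wider, by a larger factor at stand-alone than at divergent promoters. They mostly reached across the start, as those of downstream-only promoters did. Their median widths were 1038, 1008 and 1002 bp, against 849, 818 and 795 bp for downstream-only promoters. In the replicate not used for the choice the log2 ratio of median widths was 0.30 ± 0.019 (SD, n = 3; exact sign-flip permutation p = 0.25, again the smallest possible), positive in 3 of 3 replicates. With all 3 replicates used for the choice, median widths differed by a factor of 1.31 within stand-alone and 1.08 within divergent promoters, against 1.24 over both. The factor of 1.08 again compares classes that partly share peaks. The classes differed at the upstream edge. There the median peak began 538.5, 528 and 516 bp upstream of the start for members and 346, 319.5 and 304 bp upstream for downstream-only promoters. Both ended at similar distances downstream (473, 451.5 and 447.5 bp against 486.5, 485.5 and 475.5 bp). The upstream edge is partly set by the rule, because a peak contains its summit and members have theirs at least 150 bp upstream. How much of the difference in width the rule brings with it was not tested. The start itself lay inside the peak in all 3 replicates at 458 of 514 members (89.1%, 95% Wilson interval 86.1 to 91.5) and in none at 37. At downstream-only promoters the share was 86.0% (84.4 to 87.5), and at the divergent ones among them 93.4%. In most members the upstream summit was thus the highest point of a peak that spanned the start.

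**Figure D3:**
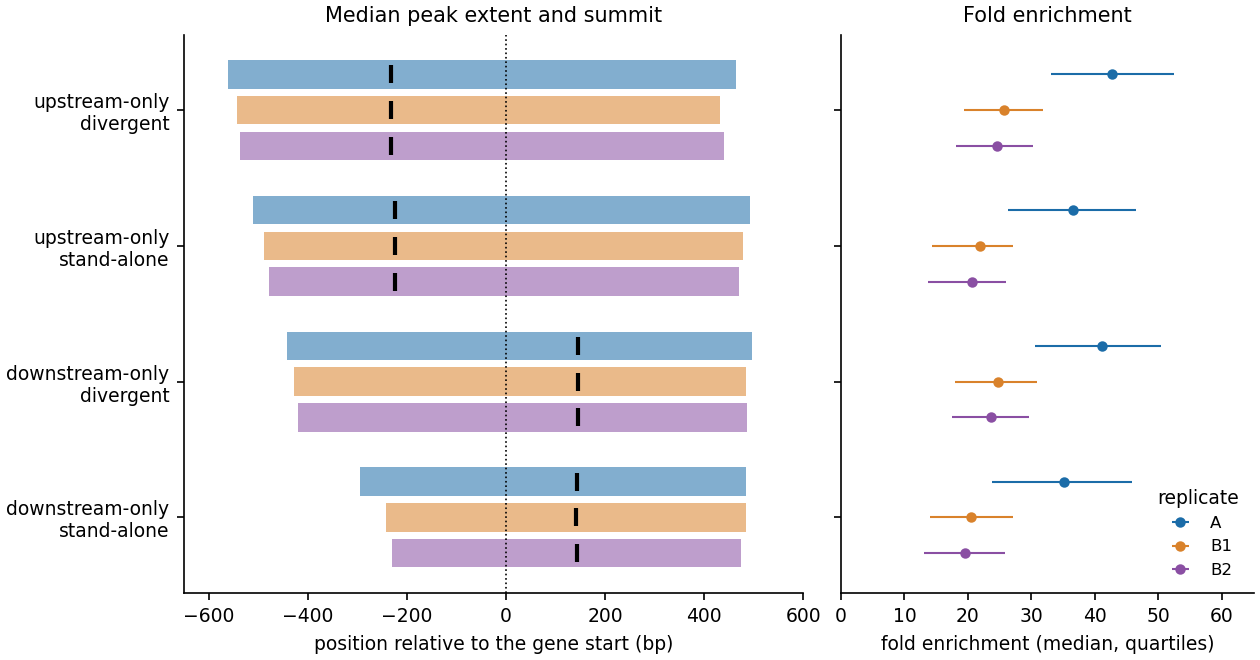
Left, median extent of the peak (bars, from the median upstream edge to the median downstream edge, in bp from the gene start) and median summit (black ticks) for divergent and stand-alone promoters of both classes in replicates A, B1 and B2; right, median fold enrichment with quartiles. Downstream edges lie at 431.5 to 497 bp in all 4 classes, whereas the upstream edge lies at 478 to 562 bp for members, at 419.5 to 441.5 bp for divergent downstream-only promoters and at 231 to 295.5 bp for stand-alone downstream-only promoters.

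Most upstream-only promoters were divergent. An opposite-strand start of another gene lay within 1 kb upstream at 318 of 514 members, 61.9% (95% Wilson interval 57.6 to 66.0). The share was 26.4% (24.5 to 28.4) at downstream-only promoters, 31.3% at all single-summit genes, and 23.3% of all autosomal protein-coding genes had such a neighbour. The high share was not limited to the 150 to 400 bp of the rule. It was 65.5% (56.2 to 73.7) of the 110 single-summit genes with a mean summit more than 400 bp upstream, 54.5% (43.5 to 65.2) of 77 genes at 300 to 400 bp. Between 150 bp upstream and 50 bp downstream, 187 of 425 genes had such a neighbour. For a protein-coding neighbour the shares were 42.6% (38.4 to 46.9) of members and 12.5% (11.1 to 14.1) of downstream-only promoters. Same-strand starts upstream were rare in both classes, at 3.50% and 6.31%. The intervals cover counting error only and are not a test, since neighbouring genes are not independent units.

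The partner of a divergent promoter is the nearest protein-coding gene start on the other strand within 1 kb upstream. Where there was none, it is the nearest such start of a gene of another type. A protein-coding partner was thus taken even if a non-coding start lay nearer. Of the 318 partners, 219 were protein-coding and 89 were long non-coding RNA (lncRNA) genes. The partner started a median of 80 bp from the member's start, against 95.5 bp at divergent downstream-only promoters. The summit lay past the partner's start, downstream of it on the partner's strand, at 300 of 318 members (94.3%), a median of 148 bp from the partner's start (quartiles 131 and 172 bp). This direction is largely fixed by the rule, because a summit at least 150 bp upstream must lie past any start that is nearer than that. The distance is fixed less: for partners up to 50 bp away the rule left a span of 250 bp, and the quartiles of the summit were 148 and 191 bp past the partner's start.

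The median summit lay farther upstream where the partner started farther away, up to 250 bp. Where the partner started up to 50 bp away (93 members) the median summit was 196 bp upstream of the member's start, and where it started over 50 and up to 100 bp away (110 members) it was 228 bp upstream. At over 100 and up to 150 bp (70 members) it was 266 bp, and at over 150 and up to 250 bp (26 members) 302 bp. Across these groups the median distance from the partner's start went from 169 down to 133 bp. The rule partly sets this fall, because its limit of 150 bp upstream leaves out short distances from near partners. For the 19 members whose partner started farther away the pattern ended, and the median summit lay between both starts, 207 bp short of the partner's. Spearman's rho of summit distance on partner distance was 0.62 over the 318 members, 0.71 over the 219 with protein-coding and 0.45 over the 89 with lncRNA partners, given as a description because the rule limits the range of the summit. Within partner distances of up to 50 bp rho was 0.12 for protein-coding (68 members) and 0.37 for lncRNA partners (24 members). At over 50 and up to 100 bp it was 0.44 and 0.041, and at over 100 and up to 150 bp 0.45 and -0.0021. Which partner type had the higher rho thus changed between groups of distance, each with only 22 to 26 lncRNA partners.

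**Figure D4:**
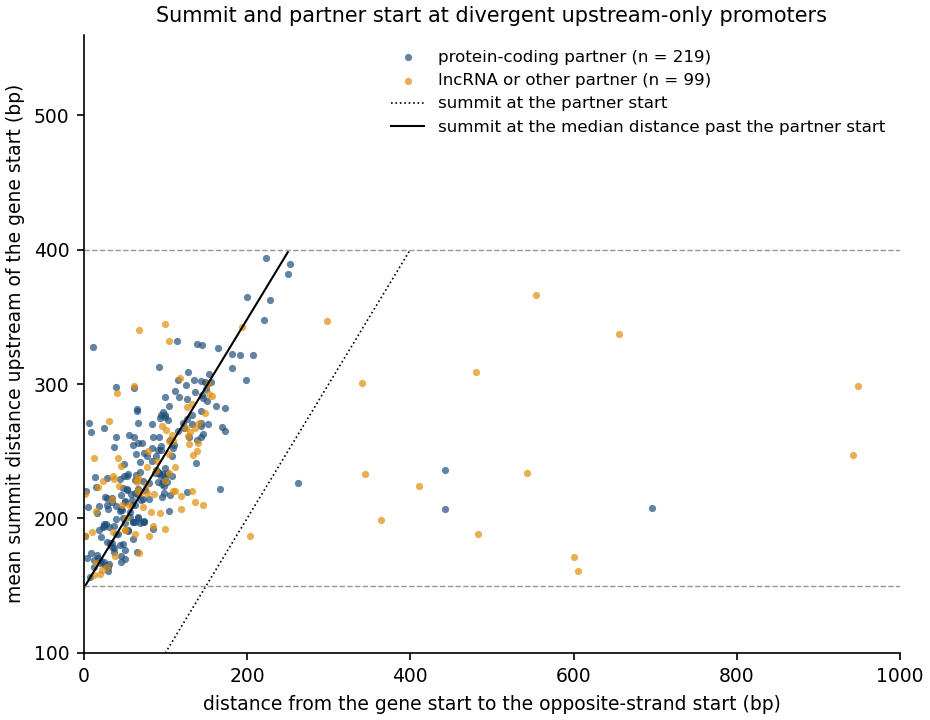
Mean summit distance upstream of the gene start (bp, vertical axis, from the 3 replicates) against the distance to the opposite-strand start (bp, horizontal axis) for the 318 divergent members; blue points have protein-coding partners and orange points lncRNA or other partners. The solid line is the median distance of 148 bp past the partner's start, the dotted line is the partner's start itself, and the dashed lines are the limits of the rule; most points below 250 bp on the horizontal axis follow the solid line.

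Seen from the other side, the same summit was often a downstream summit, which the rule largely fixes, since a summit at least 150 bp upstream falls past a protein-coding partner that starts a median of 72 bp away. Of the 219 protein-coding partners, 132 (60.3%) were themselves downstream-only promoters (10.2% of all genes and 43.3% of single-summit genes were), 52 had a single summit at another position, 22 had no summit within 1 kb of their own gene-record start in any replicate, 9 had several summits or lacked one in some replicate, and 4 were upstream-only. A partner's start here is that of any of its transcripts, so it can differ from its gene-record start. ACACA and TADA2A, a subunit of histone acetyltransferase complexes, start 50 bp apart, and their summit lay a mean of 176 ± 1.53 bp (SD, n = 3) upstream of ACACA and 126 bp inside TADA2A. TMEM199 and POLDIP2, a partner of DNA polymerase delta, start 115 bp apart, with the summit 277, 263 and 256 bp upstream of TMEM199 and 150 bp inside POLDIP2. At PLAGL2 the summit lay 183 bp inside POFUT1, a protein O-fucosyltransferase, and at CCDC87 it lay 145 bp inside CCS, the copper chaperone of superoxide dismutase. TADA2A, POLDIP2, POFUT1 and CCS were all downstream-only.

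In 2 pairs both genes were upstream-only. LNP1 and TOMM70, the latter a receptor of the mitochondrial outer membrane, start 443 bp apart, and the single summit of both lay between the starts, with fold enrichments of 25.5, 19.8 and 16.7. BECN1, a gene of autophagy, and PSME3, a proteasome activator subunit, have long overlapping gene records, and each had its own summit, with fold enrichments of 55.3, 27.0 and 32.9 at BECN1 and 33.4, 16.4 and 23.6 at PSME3. The canonical starts of BECN1 and PSME3 lie 9.07 and 9.01 kb inside these records.

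That last point applied to a part of the class. The Ensembl canonical transcript, the 1 transcript chosen to represent a gene, started more than 1 kb inside the gene record at 89 of 514 members (17.3%, interval 14.3 to 20.8), at 22.3% of divergent and 9.18% of stand-alone members, against 4.43% of downstream-only promoters and 16.5% of all genes. For these the upstream summit is placed against the start of an alternative transcript. Examples picked after their values were seen are genes of restricted tissues. RAG1, the recombinase of lymphocytes, has its canonical start 57.6 kb inside the record, and its summit lay 131 bp inside TRAF6, a ubiquitin ligase of immune signalling. IL5, a cytokine gene, has its canonical start 13.3 kb inside, with the summit 169 bp inside RAD50, a DNA repair gene. For AANAT, the pineal enzyme of melatonin synthesis, the canonical start is 14.2 kb inside and the summit lay 104 bp inside UBE2O. With the canonical start in place of the gene record, the divergent share among upstream-only promoters was 51.9%, against 26.3% of downstream-only promoters, and among members whose canonical start lay within 50 bp of the record it was 55.6% against 25.9%.

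The 196 stand-alone members had no such neighbour, and 80 of them (40.8%) had another start within 5 kb in some other arrangement. GARRE1, a Rac effector gene, had fold enrichments of 56.5, 42.0 and 36.8, with summits 170, 159 and 163 bp upstream. TRAP1, the mitochondrial HSP90 chaperone, had 60.0, 35.5 and 36.5, with summits 195, 179 and 187 bp upstream. At TNRC6C, a protein of microRNA silencing, summits lay farther out, 379, 373 and 395 bp upstream, with fold enrichments of 54.3, 38.2 and 36.8. TNFAIP8 (57.8, 41.5 and 41.5) and DGAT1, an enzyme of triglyceride synthesis (62.0, 38.2 and 34.5), completed the 5 strongest with no other start within 5 kb. All 5 peaks of this group spanned the start.

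Stand-alone members differed from stand-alone downstream-only promoters in the upstream reach of the peak rather than in height. Their median fold enrichments were 36.5, 21.8 and 20.6, against 35.1, 20.4 and 19.6. Their peaks began 510, 488 and 478 bp upstream, against 295.5, 243 and 231 bp, a mean ratio of 1.93, and ended at the same distance downstream (mean ratio 0.997). The median first exon of the canonical transcript measured 215.5 bp in the former and 179 bp in the latter. These are descriptions, as the same peaks chose the classes and the rule partly sets the upstream edge.

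The DNA of the members was CpG-rich on both sides of the start. The 500 bp upstream held a median of 45 CpG dinucleotides (quartiles 35 and 55), against 29 (21 and 38.2) at downstream-only promoters, and the 500 bp downstream held 41 against 44. More CpG upstream than downstream was found at 263 of 514 members (51.2%, interval 46.9 to 55.5) and at 16.6% (15.0 to 18.3) of downstream-only promoters, with 27.0% of all genes between them. The members' share joined 61.3% of divergent with 34.7% of stand-alone members, against 123 of 518 and 203 of 1446 downstream-only promoters of the same kinds. The divergent classes are not separate sets of DNA, since 132 protein-coding neighbours of members were downstream-only promoters. For such pairs the stretch upstream of the member largely overlaps the stretch downstream of its neighbour. The upstream median was 45 at divergent members against 33 at divergent downstream-only promoters, and 44 against 27 at stand-alone ones. Downstream of the start the kinds of member parted, with medians of 37 at divergent and 52 at stand-alone members.

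**Figure D5:**
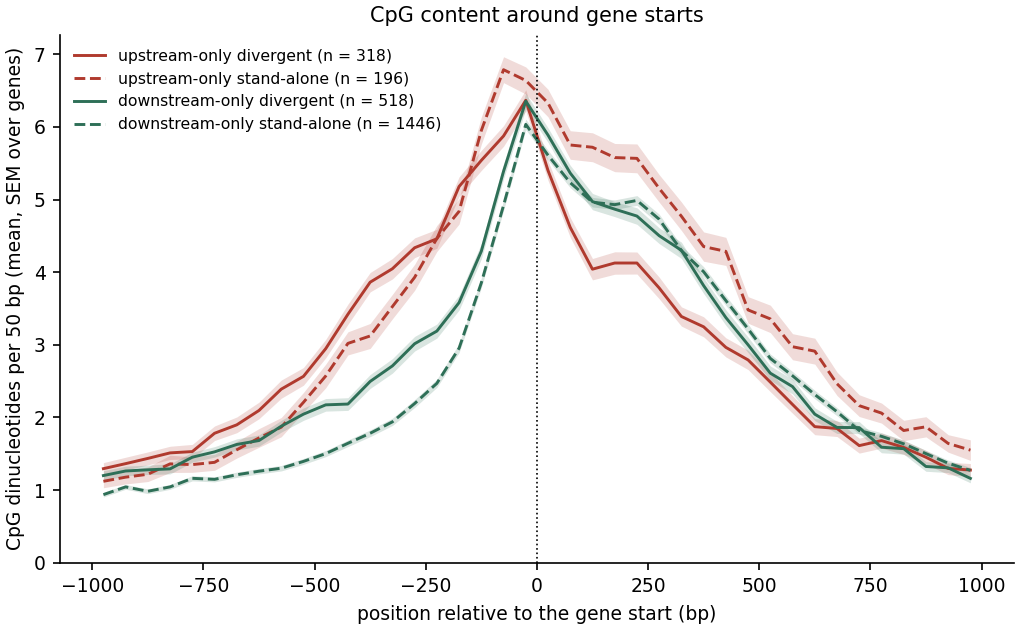
Mean number of CpG dinucleotides per 50 bp (vertical axis, shading is the SEM over genes) by position from the gene start (bp) for divergent and stand-alone promoters of both classes. From 500 to 50 bp upstream both red curves (members) lie above both green curves (downstream-only), and from 50 to 500 bp downstream the stand-alone members are highest and the divergent members lowest.

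CpG-island-like sequence (GC share of at least 0.5 and observed over expected CpG of at least 0.6 over 250 bp on either side) surrounded the summit at 96.3% of members (94.3 to 97.6) and 94.3% of downstream-only promoters (93.2 to 95.3), and the intervals overlapped. At the start the shares were 98.1% (96.5 to 98.9) and 92.7% (91.5 to 93.8), and 59.4% of all autosomal protein-coding genes had such a start. The GC content from 150 to 400 bp upstream, where the rule places the members' summits, was a median of 66.5% in members and 54.2% in downstream-only promoters. Over 250 bp on either side of each gene's own summit it was 66.5% and 69.5%. Sequence around the summit is partly the same in both classes, since 132 protein-coding neighbours of members were downstream-only promoters, often with the same summit.

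Letters of known motifs were counted in fixed windows. Within 75 bp of the members' median summit position, 229 bp upstream, the SP/KLF letters GGGCGG occurred on either strand at 41.2% of members, 23.9% of downstream-only promoters and 22.5% of all genes at the same place. The CCAAT letters of NF-Y were rarer there in members, at 8.75% against 15.9% and 17.5%. Within 75 bp of each gene's own summit the classes were close. GGGCGG was found there at 38.9% of members (34.8 to 43.2) and 39.3% of downstream-only promoters (37.2 to 41.5). CCAAT was found at 36 of 514 (5.10 to 9.54%) and 6.01% (5.04 to 7.15). The classes partly share these windows, since 132 protein-coding neighbours of members were downstream-only promoters, often with the same summit. From 100 bp before to 50 bp after the start, GGGCGG was found at 67.3% of members (63.0% of downstream-only promoters, 42.9% of all genes) and the ETS letters CCGGAAG at 22.0% (23.5% and 9.23%). The TATAAA letters of a TATA box were found there at 3 of 514 members (0.584%, interval 0.199 to 1.70), at 2.44% of downstream-only promoters and 6.29% of all genes. None of these motifs contains another, and a match of letters does not show that a factor was bound.

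Cell cycle genes gave 6 members of 78 on the list, next to 9 downstream-only promoters. This was 7.69% of the list against 2.67% of all genes, and 28.6% of its single-summit genes against 11.3% of all such genes. Shares of this size were not particular to cell cycle genes. Genes named KIF gave 7.32% and 33.3%, and genes named TMEM gave 6.49% and 22.7%, whereas other lists gave no member. The lists were chosen with earlier results of these data known, and the shares carry no test. The 6 were CCND3, CDK6 and RB1, which act in sequence at the passage into S phase, and ANAPC2, ORC3 and CDC25B. CCND3, a D-type cyclin, had fold enrichments of 42.5, 39.8 and 41.2. CDK6, its kinase partner, had 25.7, 13.3 and 10.2, and RB1, the substrate of both, had 45.2, 17.9 and 15.1. ANAPC2, a subunit of the anaphase-promoting complex, had 70.1, 25.2 and 20.6. Of these 6 members, 5 were divergent, and the canonical starts of CCND3 and CDC25B lie 108 and 9.54 kb inside their records. At CCND3 the summit lay 145 bp inside TAF8. Its peak ended 112 and 121 bp upstream of the start in A and B2 and 116 bp past it in B1. At ANAPC2 the summit lay 190 bp inside SSNA1, at ORC3 170 bp inside RARS2 and at CDC25B 150 bp inside CENPB. TAF8, SSNA1, RARS2 and CENPB were all downstream-only. RB1 had a lncRNA partner, with the summit 204 bp inside it, and CDK6 had none.

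Chromatin modifiers gave 4 members of 117, next to 10 downstream-only promoters, which was 3.42% of the list and 11.1% of its single-summit genes and so near the 2.67% and 11.3% over all genes. KMT5B, which methylates lysine 20 of histone H4, had fold enrichments of 54.9, 36.1 and 32.5 with no other start within 5 kb. ASH1L, a methyltransferase for lysine 36 of histone H3, had 50.1, 28.1 and 29.2, with the summit 155 bp inside MSTO1. PCGF5, a Polycomb subunit whose canonical start lies 57.7 kb inside its record, had 29.3, 21.9 and 20.5.

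The lists of signalling, adhesion and developmental genes also gave counts near those over all genes. Of 49 TGF-β signalling genes 1 (2.04%, beside 2.67% of all genes) was upstream-only, BMPR1A, a type I receptor for bone morphogenetic proteins (46.2, 33.6 and 32.5), and 6 were downstream-only. Of 66 invasion and adhesion genes 1 (1.52%) was, ITGA1, the integrin α1 subunit (14.1, 7.54 and 9.20), and 7 were downstream-only. Of 96 developmental regulators 3 were (3.12%, and 18.8% of the 16 with a single summit, beside 11.3% of all such genes). FOXD3, a transcription factor of the neural crest, had 27.7, 12.4 and 13.8, HOXA6 had 13.6, 12.5 and 12.9, and HOXD1 had 13.0, 6.19 and 6.27. These stood low among single-summit promoters, at mean percentiles of 26.4, 17.6 and 6.38, and the canonical start of HOXA6 lies 2.83 kb inside its record.

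Genes of growth signalling, picked after their values were seen and not by a rule, were also among the members. AKT1, EGFR and MAP2K2 had no divergent neighbour, and FOXM1 had one. AKT1, a kinase of the phosphoinositide pathway, had fold enrichments of 53.1, 33.1 and 31.5, with summits 231, 236 and 230 bp upstream. EGFR, a receptor tyrosine kinase, had 34.3, 21.1 and 22.6, with a mean summit 240.3 bp upstream, and MAP2K2, a kinase of the MAP kinase cascade, had 53.0, 23.3 and 20.9. FOXM1, a transcription factor of dividing cells, had 39.9, 32.9 and 31.0, with the summit 171 bp inside RHNO1, a gene of the DNA damage response. These genes were not on a list, and no count or test belongs to them.

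Other lists were counted by the same rule. None of 87 DNA repair genes was upstream-only, and 13 were downstream-only. The list held 26 genes with a single summit, and of all such genes 11.3% were upstream-only. None of 24 melanocyte lineage, 67 RAB or 77 TRIM genes was upstream-only. Zinc finger genes named ZNF gave 17 members of 503, next to 120 downstream-only. Genes named TMEM gave 15 of 231, next to 24, and 10 of the 15 were divergent. Cytosolic ribosomal proteins gave 3 of 80 (RPL22, RPL36AL and RPS6), mitochondrial ribosomal proteins 2 of 78, oxidative phosphorylation genes 2 of 100, proteasome genes 1 of 39 (PSMD14), translation initiation factors 3 of 53 (EIF3A, EIF4A3 and EIF4E2) and solute carriers 3 of 359. KIF genes gave 3 of 41, UBE2 genes 1 of 35 and DNAJ genes 2 of 45. These counts are small and are given with no test, beside the 2.67% over all genes.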

How the data were processed

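PHF8 ChIP-seq peaks of SKMEL-147 cells were taken from 1 deposited list for each of the 3 replicates, with 21506 (A), 20882 (B1) and 20120 (B2) peaks. For these lists the authors mapped reads with Bowtie2 to hg19 (the same sequence as GRCh37) and ran MACS in narrow mode on each replicate against input, per the labels and the methods of the study. Versions and the handling of duplicate reads are not given in the sources used here. Fold enrichment, as deposited, is the ratio of ChIP to local background at the summit, on a linear scale. The authors' p-values and q-values were deposited as −log10 values, and the deposited score, which follows the −log10 q-value, was not used.

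Library totals are unknown, but fold enrichment and p-value together gave back a whole number of ChIP fragments for 100% of peaks within a tolerance of 0.001 (medians of 54, 39 and 40 per summit). Amplified copies are not independent molecules, so fragment numbers need not be counts of molecules. The intervals are on shares of genes and cover counting error only, and neighbouring genes are not independent units. Each replicate was 1 sample of the single group, and genes and classes were compared in fold enrichment only within a replicate because the scale differs between them.

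Members and lists were chosen with earlier results of these data known. Starts, neighbours and transcripts came from GENCODE release 44 lifted to GRCh37. Shares carry 95% Wilson intervals. Ratios of class medians in the replicate not used for the choice were tested by flipping the signs of the 3 replicates in every way (exact, two-sided permutation test), which cannot go below 0.25. The code was tested on simulated data. Named genes were the 10 strongest and 3 weakest members, the 3 nearest each limit and the 3 just outside it, the 5 strongest with no other start within 5 kb, members of the hand-written lists, the 5 strongest with a protein-coding divergent partner and the 3 strongest downstream-only promoters. RAG1, IL5, AANAT, the growth signalling genes, PPP4R3A, BECN1, PSME3, LNP1, TOMM70 and the genes named for prefix lists or shared summits were added afterwards. Some members are not reported here. Alternatives were stricter q-value and fold enrichment cutoffs, other windows and position limits, canonical starts, leaving out divergent genes or each replicate, recovered fragments, other partner definitions and a shorter sequence window. Python 3.11.15, NumPy 2.4.6, pandas 2.3.3, SciPy 1.17.1, pysam 0.24.0 and matplotlib 3.10.9 were used.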

Additional observations from a re-analysis of the deposited data

How the results depend on the processing

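No ratio of class medians changed direction under any alternative run, and the divergent share stayed above that of downstream-only promoters in each. Narrower position limits (200 to 350 bp upstream) left 307 upstream-only promoters, and 71.7% of genes chosen in this way kept their position in the replicate not used. Leaving out divergent genes left 196 by construction, with 93.9% CpG-island-like summits, and a log2 ratio of median fold enrichment of 0.068. The divergent share was 51.9% with canonical starts (26.3% of downstream-only promoters), 42.6% with protein-coding partners only (12.5%), and 55.6% (25.9%) for genes whose canonical start lay within 50 bp of the record, an alternative chosen after seeing the data. Allowing 1 summit within 500 bp in place of 1 kb gave 85.4% of peaks covering the start. CpG-island-like summits were 85.6% with 100 bp of sequence on either side (88.6% of downstream-only promoters). When 1 replicate was left out, classes were chosen on a single list and their position was kept in 61.8% to 64.0%, and the smallest sign-flip p was 0.5.

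No paired analysis was possible because the series has 1 group with peak lists. Summits too weak to be called against their local background are absent from the lists. The single-summit peaks rested on as few as 11, 9 and 10 fragments in A, B1 and B2. The summit of a broad peak is 1 point, so a domain with high points on both sides of a start is entered by the higher one only. Divergent partners depend on the annotation, and which of both genes a summit serves cannot be told apart from these peaks.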
